A study of Mus musculus with 47 samples.

Results

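Colony-stimulating factors are secreted proteins that keep myeloid cells alive and drive their production, and each acts through its own receptor on the cell surface. The genes of these factors and receptors were taken by symbol, without use of a measured value, and all 9 were among the 20456 genes of the count table. They comprise 4 ligands (Csf1, Il34, Csf2 and Csf3) and 5 receptor subunits (Csf1r, Csf2ra, Csf2rb, Csf2rb2 and Csf3r). Csf1 and Il34 bind Csf1r, a receptor tyrosine kinase on which monocytes, tissue macrophages and microglia depend. Csf2 binds Csf2ra, which signals together with the common beta chain Csf2rb, a subunit shared with the receptors of interleukin 3 and interleukin 5, and a close relative of that chain, Csf2rb2, serves the mouse interleukin 3 receptor. Csf3 binds Csf3r on neutrophils and their precursors. Before birth the liver is the main site of blood formation and holds Kupffer cells, its resident macrophages, while the alveolar macrophages of the lung depend on Csf2 and the microglia of the brain on Csf1r.

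RNA was sequenced from liver, lung and brain of C57BL/6 embryos at E18.5. The embryos were homozygous for 1 of 2 substitutions in the histone chaperone Daxx or were wild-type (WT) littermates. S226A was made to remove the interaction of Daxx with the histone variant H3.3, and Y130A that with Atrx. Both alleles were made with CRISPR/Cas9 in C57BL/6N zygotes, carried further silent changes against renewed cutting, and were backcrossed to C57BL/6J, so that every cell of a mutant embryo carried the change and parental C57BL/6N segments can differ between embryos. Each of 4 S226A litters and 4 Y130A litters gave 1 mutant and 1 WT library per tissue, apart from the WT lungs of the Y130A litters (n = 3), and the 12 groups held 47 libraries. A change of 1 codon cannot be read from gene counts, so that the genotype labels were not checked here.

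Libraries of the S226A litters held between 15722147 and 26190403 reads assigned to genes and those of the Y130A litters between 36351738 and 54885020, so that low counts were measured more precisely in the latter. Liver markers summed to between 147637 and 225254 CPM (reads scaled to library size) in livers and to at most 1304 elsewhere, lung markers to between 5509 and 9371 in lungs and to at most 18.8 elsewhere, and brain markers to between 2940 and 4036 in brains and to at most 19.8 elsewhere. Keratinocyte markers summed to 1187 CPM in WT liver replicate 2 of the S226A litters and to 789 CPM in Y130A liver replicate 1, against 0.724 to 11.7 CPM in the other livers.

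In WT tissue, every member apart from Il34, Csf2 and Csf3 had its highest mean level in the liver. Levels of different genes are compared as RPKM, reads scaled to library size and to the length of the exons. In WT liver (n = 8) Csf1r stood far above the rest with 39.3 ± 2.1 RPKM (mean ± SD). It was followed by Csf3r (7.96 ± 0.96), Csf2rb (6.60 ± 1.0), Csf2ra (6.12 ± 0.62) and Csf1 (5.08 ± 0.78), and each of these neighbours overlapped the next in its range over libraries. In WT lung (n = 7) the order was Csf1r (8.63 ± 1.2), Csf2 (6.68 ± 1.5), Il34 (4.67 ± 1.1), Csf2ra (4.21 ± 0.29), Csf1 (3.57 ± 0.44), Csf2rb (2.66 ± 0.72), Csf3r (1.16 ± 0.35) and Csf2rb2 (0.435 ± 0.24). Apart from Csf2rb and Csf3r, neighbours in this order overlapped in their ranges, and in the WT lungs of the Y130A litters alone Csf1r (7.44 RPKM) lay next to Csf2 (7.29 RPKM) and Csf2ra (4.16 RPKM) above Il34 (4.09 RPKM). In WT brain (n = 8) only 4 members had a mean above 1 RPKM. These were Csf2ra (5.20 ± 0.55), Csf1r (4.47 ± 0.24), Csf1 (2.23 ± 0.23) and Il34 (1.44 ± 0.25), and the ranges of Csf2ra and Csf1r overlapped.

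**Figure D1:**
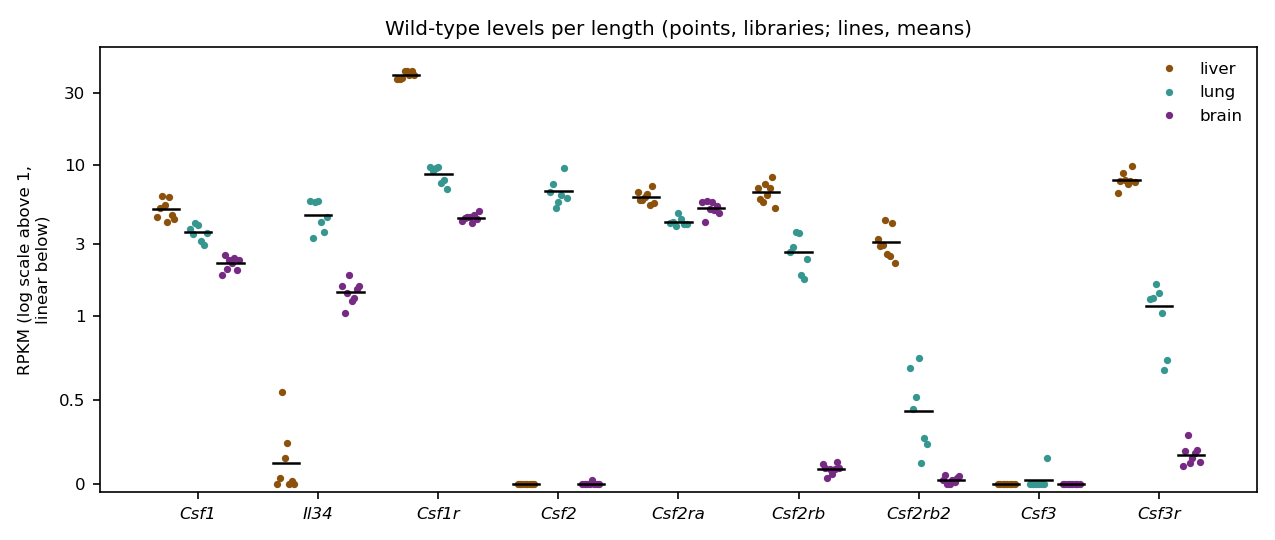
RPKM of each of the 9 genes in WT liver (n = 8), lung (n = 7) and brain (n = 8), on an axis that is logarithmic above 1 and linear below; points are libraries and lines are means. Csf1r in liver is the highest at 39.3 RPKM, Csf2 has points above 0 in lung and in 1 brain library, and the means of Csf2ra lie between 4.21 and 6.12 RPKM in all 3 tissues.

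The 2 ligands of Csf1r had different tissues of highest level. Csf1 was higher in WT liver than in WT lung by 0.53 on the log2 scale (SE 0.10, adjusted p = 5.96e-06, edgeR's quasi-likelihood test) and higher in WT lung than in WT brain by 0.66 (SE 0.10, adjusted p = 9.81e-08). Il34 was lower in WT liver than in WT lung with a log2 fold change of -5.31 (SE 0.50, adjusted p = 1.19e-12), and WT lung was above WT brain by 1.66 (SE 0.38, adjusted p = 0.000141). Il34 had between 0 and 24 reads in each of the 16 livers.

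Csf2 was found in the lung. All 15 lung libraries held Csf2 reads, from 78 to 374, whereas no liver library held any and 1 of the 16 brain libraries held 1 read. With 3 reads per library as the floor that a count of 0 allows, the mean Csf2 level of WT lung was at least 24.8-fold higher than in WT liver and at least 42.3-fold higher than in WT brain. Such floors cover counting error only, because reads are not independent molecules. Csf3 had 26 reads in total, spread over 7 of the 47 libraries, and did not pass the filter on low counts. Its reads were 5, 0, 0 and 2 in S226A livers, 0, 2, 0 and 1 in S226A brains, 0, 4, 0 and 0 in Y130A lungs, 0, 0 and 11 in WT lungs of the Y130A litters and 0, 0, 0 and 1 in Y130A brains, with none in the other groups. A difference in Csf3 was not detectable at this depth.

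The receptor of Csf3 and the beta chains were lower outside the liver. WT liver exceeded WT lung by 2.88 in Csf3r (SE 0.16, adjusted p = 6.06e-20), by 1.40 in Csf2rb (SE 0.12, adjusted p = 6.63e-14) and by 3.11 in Csf2rb2 (SE 0.27, adjusted p = 7.49e-14), all as log2 fold changes. WT lung exceeded WT brain by 2.62 in Csf3r, 4.81 in Csf2rb and 3.88 in Csf2rb2. Csf2ra did not share this order. It differed by 0.54 between WT liver and WT lung (SE 0.12, adjusted p = 8.7e-05) and was lower in WT lung than in WT brain (log2 fold change -0.31, SE 0.12, adjusted p = 0.0165), and the difference of 0.23 between WT liver and WT brain had an adjusted p of 0.0525 (SE 0.11). With embryo as a block, since liver and brain came from the same embryos, that difference was 0.24 and passed (adjusted p = 0.0226). It also passed in a fit of the compared libraries alone (0.0499), without the livers that held keratinocyte transcripts (0.0489) and on leaving out WT liver replicate 2 (0.0359) or 4 (0.0419) of the Y130A litters, WT brain replicate 1 of the Y130A litters (0.0432) or WT brain replicate 1 (0.0442) or 3 (0.0406) of the S226A litters. Brain held RNA of the specific chain of the Csf2 receptor at 5.20 ± 0.55 RPKM beside 0.0895 ± 0.031 RPKM of the beta chain that signals with it. Of the 8 members tested, 8 differed between WT liver and lung, 6 between liver and brain and 8 between lung and brain, where 80.1%, 87.3% and 84.0% of all 16892 genes tested did so.

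The question put to the mutants was whether RNA of the ligands or of their receptors moved with the loss of either interaction of Daxx. In S226A liver, 3 receptor genes rose and 1 fell (adjusted p below 0.05), where 6.14% of all genes tested were called higher and 5.54% lower. In S226A lung 1 receptor gene rose and 3 fell, where 0.852% were called higher and 1.02% lower. With litter as a block in edgeR, the rise, in Csf3r (adjusted p = 0.137), and the fall in Csf2rb2 (adjusted p = 0.0837) lost the call. In S226A brain 1 receptor gene fell, where 0.0592% were called higher and 0.184% lower. No ligand passed the test in any mutant tissue. In Y130A liver, lung and brain edgeR called no member, where 0.272%, 0.0178% and 0.00592% of all genes were called in either direction, and 1, 0 and 1 members had an unadjusted p below 0.05. DESeq2 also called 0 members in each Y130A tissue. All mutant libraries lay on 1 side of all their WT littermates for 4, 5 and 1 members in the liver, lung and brain of S226A embryos, where this held for 11.9%, 3.81% and 2.48% of all genes tested, and for 0, 0 and 1 members in Y130A liver, lung and brain, where it held for 2.35%, 4.16% and 4.75%.

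The effects were also compared with each other by a test of their difference. The effects of S226A and Y130A differed in 3 members in liver, 2 in lung and 1 in brain, where they did so in 5.9%, 0.308% and 0.0829% of all genes tested. The effect of S226A differed between liver and lung in 4 members, between liver and brain in 2 and between lung and brain in 0, where it did so in 6.9%, 3.71% and 0.124% of all genes. For the 0 of 8 members between lung and brain, edgeR gave 4 members an unadjusted p below 0.05 and DESeq2 called 1.

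**Figure D2:**
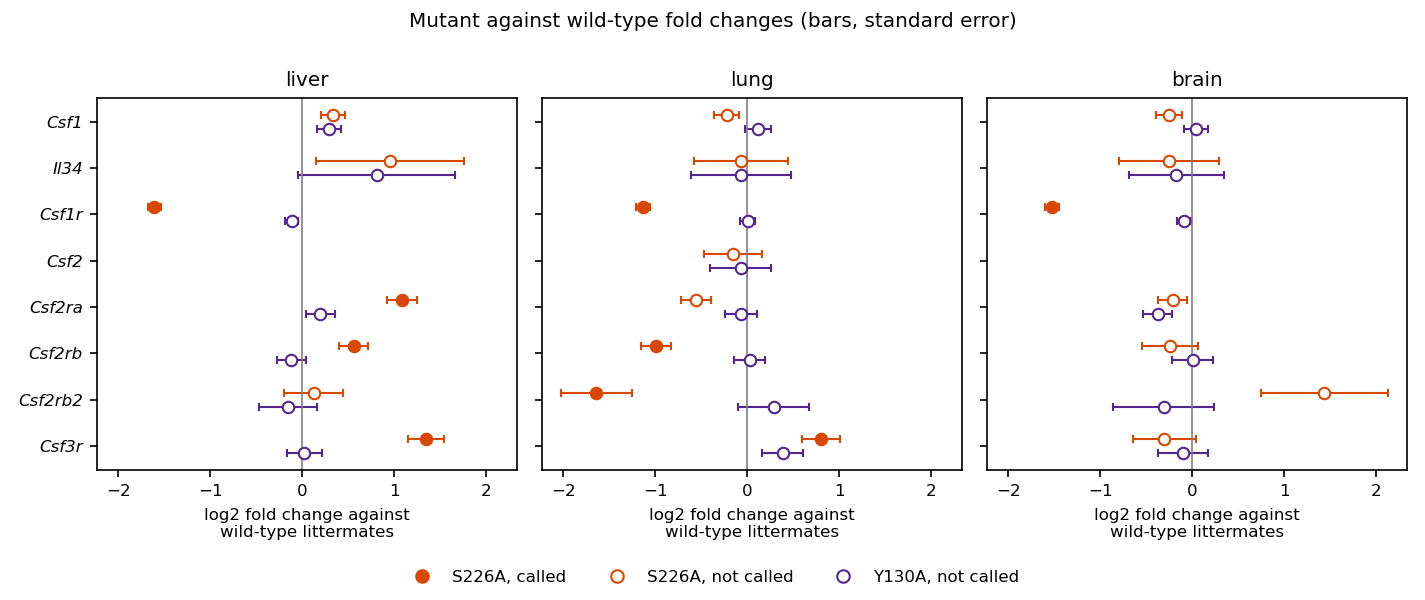
Log2 fold changes of mutant over WT littermates in liver, lung and brain for the 8 genes that passed the filter (Csf2 in lung alone), with the standard error as bars; filled symbols passed an adjusted p below 0.05. Csf1r is filled on the left of 0 in all 3 S226A panels, Csf3r on the right in liver and lung, Csf2ra and Csf2rb on the right in liver, and Csf2rb and Csf2rb2 on the left in lung.

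Csf1r (chr18:61100598-61132149, plus strand, GRCm38, 24 exon blocks) was lower in every S226A library than in every WT library of its tissue. In liver, the normalized counts (reads scaled to a common library size) were 2160, 2371, 1920 and 2108 in S226A and 6334, 6295, 6373 and 7139 in WT littermates. The groups lay far apart, with the highest S226A liver below the lowest WT liver. The log2 fold change was -1.61 (SE 0.07, adjusted p = 6.83e-20), or 3.05-fold lower, and S226A was the lower in 4 of 4 litters. In bulk tissue, fewer cells of a type and less RNA per cell cannot be told apart.

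Csf1r in lung measured 714, 839, 728 and 684 in S226A and 1655, 1562, 1633 and 1651 in WT littermates, again without overlap. It was lower by a log2 fold change of -1.13 (SE 0.07, adjusted p = 5.16e-14). In brain the values were 317, 253, 241 and 239 in S226A and 727, 756, 772 and 773 in WT. This group of S226A brains also lay wholly below the WT brains, with a log2 fold change of -1.52 (SE 0.08, adjusted p = 1.2e-17). The fall in lung was smaller than that in liver, with a difference between the effects of -0.48 on the log2 scale (SE 0.10, adjusted p = 0.00184), but with litter as a block that difference had an adjusted p of 0.0621. The effects in liver and brain differed by -0.09 (SE 0.11, adjusted p = 0.802) and those in lung and brain by 0.39 (SE 0.11, adjusted p = 0.266). Without S226A brain replicate 1, the highest of its group, lung and brain differed by 0.50 (adjusted p = 0.0259).

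Csf1r did not pass the test in any Y130A tissue. In order of litter, Y130A livers measured 5795, 6970, 6111 and 6548 beside 6646, 7144, 6669 and 7070 in WT, with a log2 fold change of -0.11 (SE 0.07, adjusted p = 0.707), and Y130A was the lower in 4 of 4 litters. The lungs measured 1278, 1343, 1279 and 1184 beside 1282, 1344 and 1182 (0.00, SE 0.08), and the brains 732, 722, 716 and 724 beside 706, 792, 744 and 838 (-0.09, SE 0.07). The ranges of mutant and WT overlapped in each tissue. The effects of S226A and Y130A on Csf1r differed by -1.50 in liver (SE 0.10, adjusted p = 3.18e-14), by -1.14 in lung (SE 0.11, adjusted p = 6.46e-09) and by -1.43 in brain (SE 0.11, adjusted p = 3.36e-12). Csf1r shares 873 exon bases with Hmgxb3 on the opposite strand, and how the counting treated strand is not given in the sources used here, so that reads from those bases cannot be assigned with certainty.

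The ligands of Csf1r did not pass the test where their receptor fell. In liver, Csf1 measured 1006, 1260, 907 and 1022 in S226A and 708, 810, 971 and 851 in WT littermates, with a log2 fold change of 0.33 (SE 0.13, unadjusted p = 0.0177, adjusted p = 0.107). S226A was the higher in 3 of 4 litters and the ranges overlapped. In Y130A liver Csf1 had a log2 fold change of 0.29 (SE 0.13, unadjusted p = 0.034, adjusted p = 0.476), and Y130A was the higher in 4 of 4 litters. In S226A lung and brain Csf1 had log2 fold changes of -0.23 (SE 0.13) and -0.25 (SE 0.14). The difference of the S226A effects on Csf1 between liver and lung, 0.56 (SE 0.19, adjusted p = 0.0676), passed with DESeq2 (adjusted p = 0.0476) and without WT lung replicate 2 (0.0458), WT liver replicate 3 (0.0407) or S226A lung replicate 3 (0.0149). That between liver and brain, 0.58 (SE 0.19, adjusted p = 0.0847), passed without S226A brain replicate 3 (0.0390).

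Il34 in lung measured 257, 238, 281 and 353 in S226A and 333, 189, 327 and 334 in WT littermates, so that the groups overlapped (log2 fold change -0.06, SE 0.51). In brain it measured 92.0, 50.7, 72.9 and 69.6 in S226A and 90.7, 60.3, 82.2 and 107 in WT, which also overlapped (-0.25, SE 0.54). In liver it measured 46.7, 13.7, 0 and 21.6 in S226A and 0, 1.94, 31.9 and 9.06 in WT littermates, with a log2 fold change of 0.96 (SE 0.80, adjusted p = 0.516) on few reads.

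The ligands did not pass in Y130A tissue either. Csf1 had log2 fold changes of 0.12 (SE 0.14) in Y130A lung and 0.04 (SE 0.13) in Y130A brain. Il34 had values of 0.81 (SE 0.86) in liver, -0.07 (SE 0.55) in lung and -0.17 (SE 0.52) in brain.

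Markers of macrophages were counted beside Csf1r, in lists chosen with earlier results known. In S226A liver, 12 of 13 macrophage markers fell and 1 rose, with a median log2 fold change of -1.50 beside -0.01 over all genes tested. The genes that fell most were Cd163, a scavenger receptor (-5.33, SE 0.40), and C1qa, a complement subunit (-3.26, SE 0.15). The 1 that rose was the lysozyme gene Lyz2 (1.48, SE 0.20), which neutrophils and monocytes also carry. Because Lyz2 is abundant, the summed macrophage markers were higher in S226A livers (1421 to 1671 CPM) than in WT livers (1185 to 1311 CPM), against the direction of the median. Of the 8 Kupffer cell markers 6 fell and 0 rose, with a median of -4.90, which is set by Folr2 and Timd4. Their sum ranged from 125 to 199 CPM in S226A and from 393 to 530 CPM in WT, and Vsig4, a complement receptor of Kupffer cells, had no read in any S226A liver and up to 321 reads in WT livers. Outside the liver this list did not fall with Csf1r. In S226A lung 2 of its 8 genes rose and 0 fell (median 0.62), and in S226A brain 1 rose and 0 fell (median 0.68).

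In S226A brain, 4 of 9 microglia markers fell and 0 rose, with a median log2 fold change of -1.02. The largest falls were in Siglech (-4.85, SE 0.99) and Fcrls (-2.29, SE 0.34), both surface receptors of microglia, and the summed markers of the list ranged from 43.0 to 47.6 CPM in S226A and from 64.7 to 80.3 CPM in WT. Siglech and Fcrls were also the 2 of 9 genes of this list called lower in S226A liver and in S226A lung. Which cells carried them in those tissues was not tested. Siglech rests on few reads, with at most 3 in an S226A brain, at most 2 in an S226A liver and 0 in every S226A lung, beside at most 41, 27 and 21 in the WT libraries of these tissues. Fcrls had log2 fold changes of -2.99 (SE 0.74) in liver and -1.76 (SE 0.34) in lung. Of the macrophage markers 5 fell and 1 rose in S226A brain, with the fractalkine receptor gene Cx3cr1 at -2.21 (SE 0.20). In S226A lung 4 of 13 macrophage markers fell and 0 rose (median -0.38), among them Cx3cr1 (-1.25, SE 0.19) and Cd163 (-1.37, SE 0.30), while the summed list overlapped between S226A (645 to 1068 CPM) and WT (812 to 1356 CPM). In none of the Y130A tissues was a gene of these lists called. The part of cell numbers in the level of Csf1r was not tested.

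**Figure D3:**
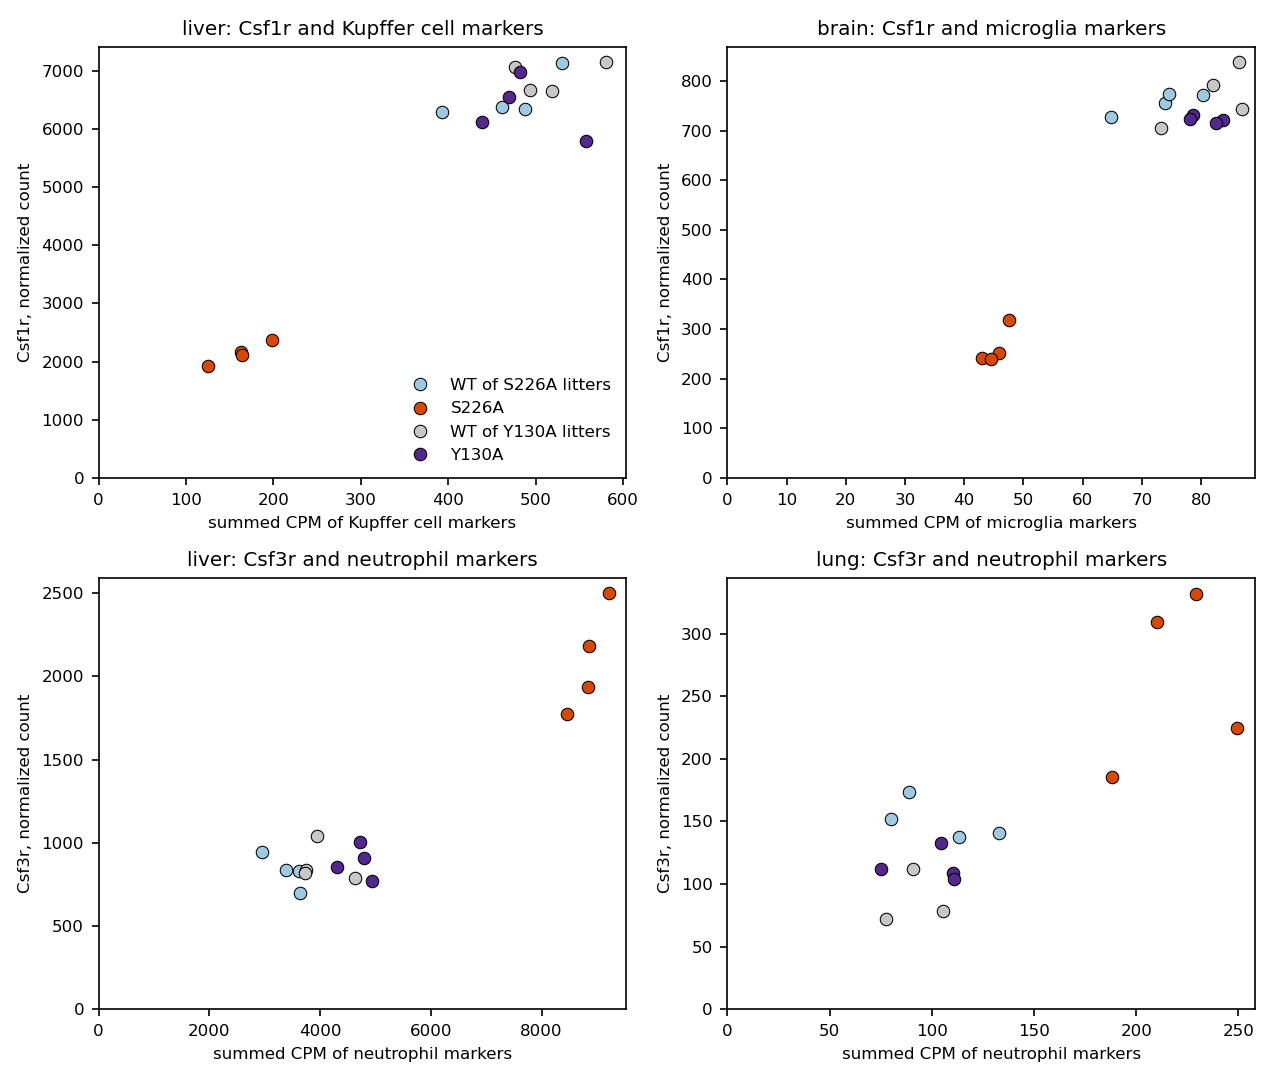
Receptor genes (normalized counts) against summed marker genes (CPM), 1 point per library: Csf1r with Kupffer cell markers in liver and with microglia markers in brain, and Csf3r with neutrophil markers in liver and in lung. S226A libraries form a separate cloud in each panel, low in both measures for Csf1r (at most 2371 and 199 in liver) and high in both for Csf3r (at least 1774 and 8453 in liver). The neutrophil sums of Y130A livers (4296 to 4932 CPM) reach above those of their WT littermates (3732 to 4622 CPM).

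Csf3r, the receptor of the granulocyte factor (chr4:126024550-126044440, plus strand, 17 exon blocks), rose in S226A liver. Normalized counts were 2501, 1933, 2182 and 1774 in S226A and 697, 827, 945 and 839 in WT littermates, so that the lowest S226A liver stood above the highest WT liver. The log2 fold change was 1.34 (SE 0.20, adjusted p = 2.77e-06), or 2.54-fold, and S226A was the higher in 4 of 4 litters. Y130A livers measured 772, 906, 1002 and 853 beside 820, 790, 837 and 1038 in WT, in order of litter, with a log2 fold change of 0.02 (SE 0.19). The effects of S226A and Y130A differed by 1.32 (SE 0.27, adjusted p = 0.00153).

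In lung, Csf3r measured 332, 225, 310 and 186 in S226A and 137, 141, 173 and 152 in WT littermates. The groups did not overlap, but the S226A lungs were spread widely and the lowest lay close to the highest WT lung. The log2 fold change was 0.80 (SE 0.21, adjusted p = 0.0357). With litter as a block the adjusted p was 0.137, in a fit of the compared libraries alone 0.400, and it was 0.122 without S226A replicate 1, 0.0712 without S226A replicate 3, 0.0613 without WT replicate 3 and 0.0810 without WT replicate 4. In S226A brain the values were 9.31, 24.2, 24.7 and 4.88 beside 11.2, 20.9, 31.2 and 13.1 in WT, which overlapped (log2 fold change -0.30, SE 0.34). In Y130A brain the log2 fold change was -0.10 (SE 0.27). The effect in liver differed from that in brain by 1.65 (SE 0.39, adjusted p = 0.00777), but without WT brain replicate 3 the adjusted p was 0.0927. Liver and lung differed by 0.54 (SE 0.29, adjusted p = 0.278).

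Genes of neutrophils and their precursors rose beside Csf3r. In S226A liver, 12 of 14 neutrophil markers and 6 of 6 granulocyte precursor markers rose and none fell, with medians of 1.30 and 1.51. The list of neutrophil markers summed to between 8453 and 9218 CPM in S226A livers and to between 2949 and 3645 CPM in WT livers. In Y130A livers 0 of 14 neutrophil markers passed, while their sum was higher than in the WT littermate in 4 of 4 litters, with 4932, 4786, 4712 and 4296 CPM beside 3732, 4622, 3743 and 3952 CPM in order of litter. Lcn2 and S100a9, abundant proteins of neutrophil granules and cytosol, had log2 fold changes of 1.49 (SE 0.13) and 1.46 (SE 0.23), and the precursor genes Ctsg and Fcnb 1.70 (SE 0.28) and 1.65 (SE 0.17).

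In S226A lung 7 of 14 neutrophil markers rose and 1 fell (median 1.23), and their sum ranged from 188 to 249 CPM in S226A and from 80.2 to 133 CPM in WT. There, 0 of 6 precursor markers passed. In S226A brain 2 neutrophil markers rose, S100a8 and S100a9, at 2.37 (SE 0.51) and 1.64 (SE 0.36), while Csf3r did not pass. The summed neutrophil markers ranged from 16.2 to 24.2 CPM in S226A brains and from 10.8 to 13.3 CPM in WT brains, and Ly6g had no read in either group. The part of neutrophil numbers in the level of Csf3r was not tested.

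Of the Csf2 receptor genes and their relative Csf2rb2, Csf2ra and Csf2rb rose in S226A liver, while Csf2rb and Csf2rb2 fell in S226A lung. Csf2ra (chr19:61223957-61228429, minus strand, 9 exon blocks) measured 1395, 814, 1214 and 967 in S226A livers and 559, 495, 493 and 516 in WT livers. All S226A livers lay above all WT livers, although they differed more among themselves. The log2 fold change was 1.09 (SE 0.16, adjusted p = 4.75e-06). In lung, the values were 222, 322, 248 and 189 in S226A and 349, 352, 334 and 406 in WT, and although the groups did not overlap the log2 fold change of -0.56 (SE 0.17, adjusted p = 0.0707) did not pass. It passed with DESeq2 (adjusted p = 0.0338), without WT lung replicate 2 (0.0434) and without S226A lung replicate 2 (0.0369). The effects in liver and lung differed by 1.64 (SE 0.23, adjusted p = 3.26e-06) and those in liver and brain by 1.30 (SE 0.23, adjusted p = 0.000197). In S226A brain Csf2ra measured 309, 304, 379 and 530 beside 485, 355, 491 and 433 in WT, which overlapped (-0.21, SE 0.16).

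In Y130A liver Csf2ra measured 468, 554, 663 and 709 beside 474, 544, 456 and 618 in WT, in order of litter (0.19, SE 0.16). The effects of S226A and Y130A on Csf2ra in liver differed by 0.89 (SE 0.23, adjusted p = 0.0116), and without the 2 livers that held keratinocyte transcripts the adjusted p was 0.0558. In brain, Y130A measured 405, 333, 317 and 306 and WT 483, 424, 451 and 408. These groups did not overlap, but the log2 fold change of -0.38 (SE 0.16, unadjusted p = 0.0225, adjusted p = 1) did not pass. In Y130A lung the log2 fold change was -0.07 (SE 0.17).

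The beta chain Csf2rb (chr15:78325752-78353847, plus strand, 17 exon blocks) measured 2075, 2154, 2033 and 1996 in S226A livers and 1497, 1284, 1211 and 1612 in WT livers. The S226A livers were close to each other and all above the WT livers, with a log2 fold change of 0.56 (SE 0.16, adjusted p = 0.0141). Without WT liver replicate 3 the adjusted p was 0.0560. In lung it measured 330, 371, 336 and 324 in S226A and 570, 614, 771 and 756 in WT, without overlap, and fell by 0.99 on the log2 scale (SE 0.16, adjusted p = 0.000196). The effects in liver and lung differed by 1.55 (SE 0.23, adjusted p = 5.49e-06). In brain, where reads were few (7 to 53 per library), the log2 fold change was -0.24 (SE 0.30). In Y130A liver and brain it was -0.12 (SE 0.16) and 0.01 (SE 0.22).

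Csf2rb2 (chr15:78282507-78305721, minus strand, 14 exon blocks) lies beside Csf2rb on the opposite strand. In S226A liver it measured 520, 453, 576 and 490 beside 452, 408, 410 and 601 in WT, which overlapped (0.12, SE 0.32). In lung it measured 25.6, 16.5, 41.3 and 24.4 in S226A and 97.0, 62.4, 72.5 and 105 in WT littermates, without overlap, on 12 to 70 reads per library. The log2 fold change was -1.64 (SE 0.38, adjusted p = 0.0154). With litter as a block the adjusted p was 0.0837, in a fit of the compared libraries alone 0.202, and it was 0.0544 without WT replicate 4, 0.0514 without S226A replicate 4 and 0.0813 without S226A replicate 2. The effects in liver and lung differed by 1.76 (SE 0.50, adjusted p = 0.0222), with 0.0516 without WT lung replicate 4 and 0.0589 without S226A lung replicate 2.

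In brain Csf2rb2 had 0 to 13 reads per library and a log2 fold change of 1.44 in S226A (SE 0.69, unadjusted p = 0.0448, adjusted p = 1). The S226A effects on Csf2rb2 in lung and brain differed by -3.08 (SE 0.79, adjusted p = 0.163), with an adjusted p of 0.00677 by DESeq2 and of 0.0385 without WT brain replicate 2. In Y130A liver, lung and brain Csf2rb2 had log2 fold changes of -0.15 (SE 0.32), 0.29 (SE 0.38) and -0.31 (SE 0.55), and none passed.

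Some reads of the beta chains cannot be told apart, and the sequences are shown for that reason. In GENCODE M21 the coding sequences of Csf2rb-206 and Csf2rb2-201 aligned over 2628 bases, 2503 of them identical (95.2%), and the longest identical run was 242 bases. Of all 50-base windows, 18.4% of the Csf2rb transcript were found unchanged in the Csf2rb2 transcript. Of all aligned windows of 120 coding bases, the stretch below held the most differences, 22, written in capitals. It starts at coding base 309 of Csf2rb and 312 of Csf2rb2.
Csf2rb: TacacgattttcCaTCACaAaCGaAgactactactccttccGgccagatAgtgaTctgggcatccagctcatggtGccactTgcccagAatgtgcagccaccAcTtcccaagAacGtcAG
Csf2rb2: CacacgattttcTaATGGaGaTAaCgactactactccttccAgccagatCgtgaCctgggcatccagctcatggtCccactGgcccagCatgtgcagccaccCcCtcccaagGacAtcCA
Reads from identical stretches could be dropped or assigned to either gene, which leaves the levels of both uncertain to that extent.

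**Figure D4:**
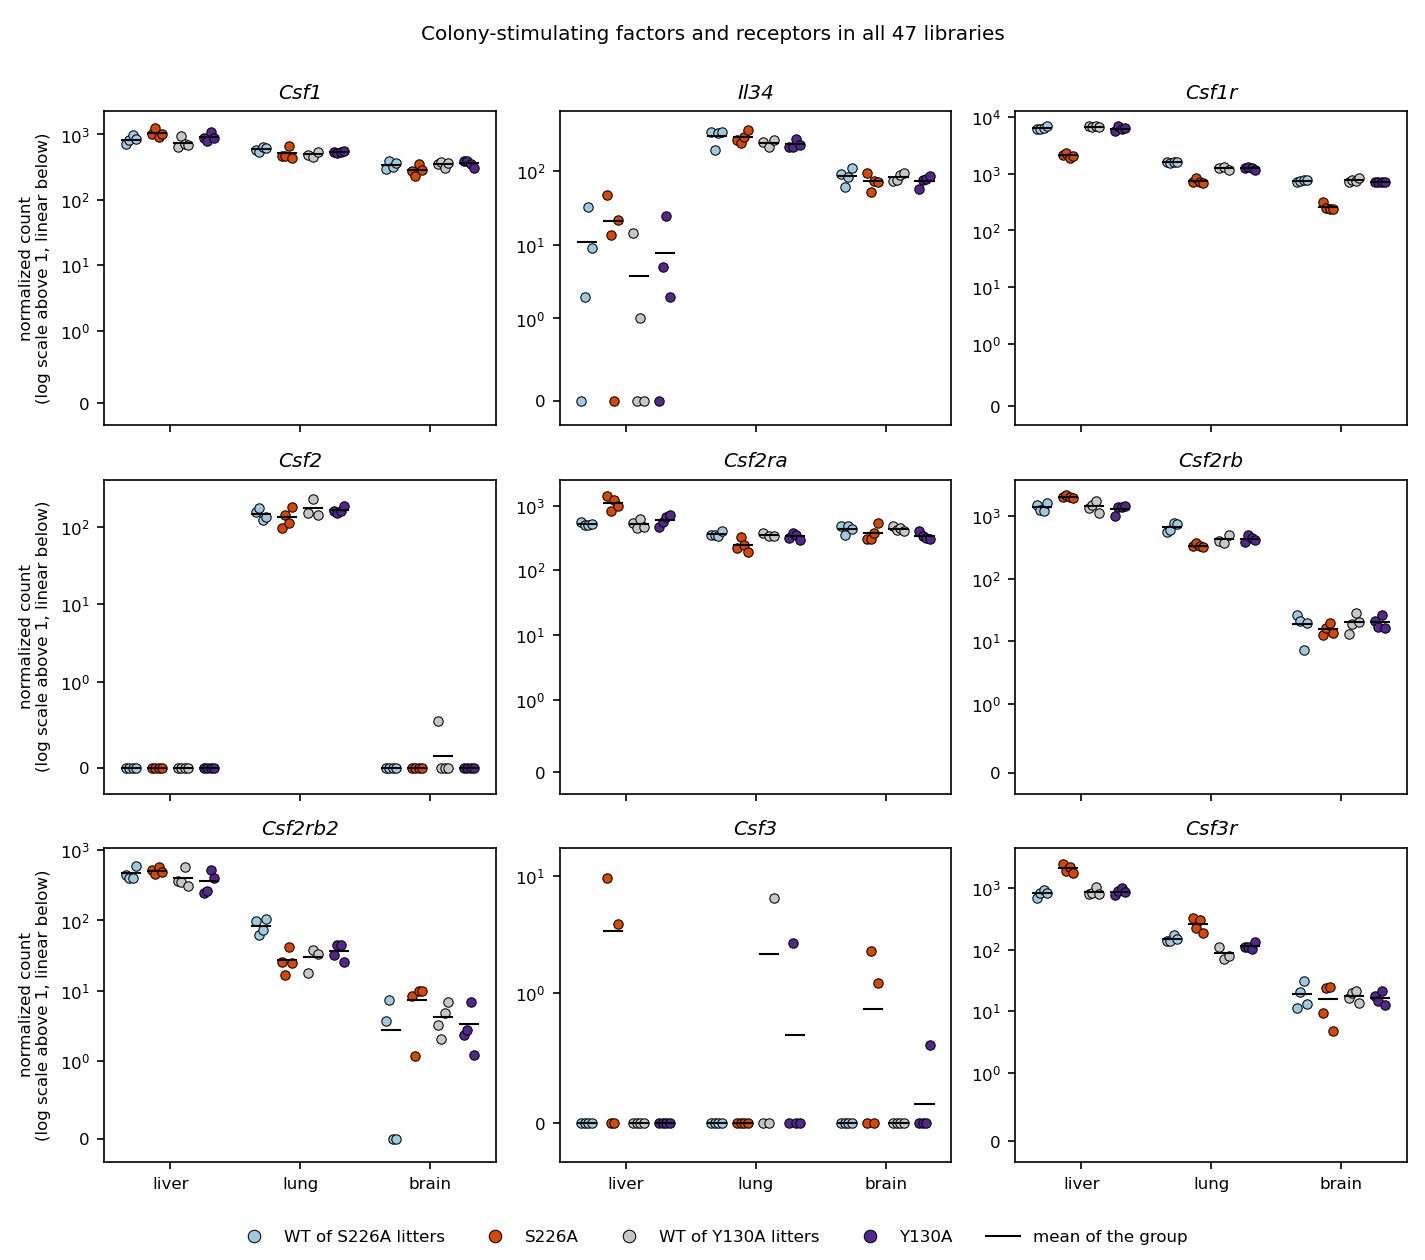
Normalized counts of the 9 genes in all 47 libraries by tissue and group, on axes that are logarithmic above 1 and linear below; lines are group means. The S226A points of Csf1r lie below the others in all 3 tissues, those of Csf3r and Csf2ra lie above in liver, and the WT lungs of the Y130A litters lie below those of the S226A litters for Csf2rb2 (17.6 to 38.5 beside 62.4 to 105).

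The lung results have to be read with the spread between the WT lungs of the S226A and Y130A litters. Between these WT lungs, 4 members differed, all lower in the Y130A litters, where 20.1% of all genes tested differed. The log2 fold changes were -0.36 for Csf1r (SE 0.08, adjusted p = 0.00092), -0.65 for Csf2rb (SE 0.17, adjusted p = 0.00566), -1.49 for Csf2rb2 (SE 0.39, adjusted p = 0.00496) and -0.78 for Csf3r (SE 0.23, adjusted p = 0.0128). WT lungs of the Y130A litters measured 17.6, 38.5 and 33.3 in Csf2rb2, within the range of the S226A lungs, and 401, 380 and 509 in Csf2rb, between the S226A lungs and their WT littermates. For Csf1r the S226A lungs (684 to 839) lay below these WT lungs too (1182 to 1344). By edgeR 0 members differed between the WT livers or between the WT brains of the litter sets, and 0 had an unadjusted p below 0.05, where 13.1% and 5.98% of all genes differed. Litter set and total count cannot be told apart, since the Y130A litters were sequenced to a median total 2.19 times that of the S226A litters.

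Y130A lungs differed from their own littermates in none of these genes. Csf3r measured 109, 112, 104 and 133 in Y130A lungs and 112, 72.2 and 78.5 in WT (0.39, SE 0.23), and Csf2rb 385, 495, 447 and 425 beside 401, 380 and 509 (0.02, SE 0.17). The effects of S226A and Y130A on Csf2rb in lung differed by -1.02 (SE 0.24, adjusted p = 0.0381). That call was lost with litter as a block (adjusted p = 0.0976) and on leaving out any of 11 libraries, with adjusted p between 0.0568 and 0.132. These were S226A replicates 1, 2, 3 and 4, Y130A replicates 2, 3 and 4, WT replicates 3 and 4 of the S226A litters and WT replicates 1 and 2 of the Y130A litters. For Csf2rb2 the difference of -1.93 (SE 0.54, adjusted p = 0.138) passed with DESeq2 alone (adjusted p = 0.0121). For Csf2rb in liver, S226A and Y130A differed by 0.68 (SE 0.22, adjusted p = 0.0594), which passed with litter as a block (0.00530), with DESeq2 (0.0283) and without WT replicate 4 of the S226A litters (0.0433) or of the Y130A litters (0.0267).

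Csf2 itself gave no mutant difference in lung. S226A lungs measured 95.1, 140, 113 and 178 and WT littermates 155, 177, 121 and 134, with overlapping ranges and a log2 fold change of -0.16 (SE 0.31). Y130A lungs measured 160, 151, 159 and 186 beside 149, 225 and 143 (-0.07, SE 0.33). Of the markers of alveolar macrophages, which depend on Csf2, 1 of 7 rose and 1 fell in S226A lung. These were the chitinase-like gene Chil3 (1.31, SE 0.31), which neutrophil precursors also carry, and the ribonuclease gene Ear2 (-1.50, SE 0.30). Of the monocyte markers 1 of 6 fell there, the chemokine receptor gene Ccr2 (-1.39, SE 0.23), while in S226A liver 3 of 6 rose and 0 fell, led by Ly6c2 (1.46, SE 0.21) and Plac8 (1.29, SE 0.25). The summed monocyte markers overlapped in liver and stood at 8565 to 11867 CPM in S226A and at 10874 to 13759 CPM in WT. That sum went against the direction of the 3 genes that rose, but they made up little of it. Their WT liver means were 1037 to 1968 as normalized counts, a scale on which values are larger than CPM.

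The promoters of Csf3r and Csf2ra are shown because both genes rose in S226A liver. RefSeq sequences of GRCm38.p6, from 250 bases before to 50 after the annotated start, were at hand for 5 of the 9 members. Motifs were searched on both strands by their letters alone. These were GAGGAA for the myeloid factor PU.1, TTNNGNAA for C/EBP factors and TGTGGT for RUNX factors, which occur in 28.3%, 40.7% and 16.8% of all 32851 promoters. Capitals mark the matches.
Csf3r (chr4:126024409-126024708, plus strand): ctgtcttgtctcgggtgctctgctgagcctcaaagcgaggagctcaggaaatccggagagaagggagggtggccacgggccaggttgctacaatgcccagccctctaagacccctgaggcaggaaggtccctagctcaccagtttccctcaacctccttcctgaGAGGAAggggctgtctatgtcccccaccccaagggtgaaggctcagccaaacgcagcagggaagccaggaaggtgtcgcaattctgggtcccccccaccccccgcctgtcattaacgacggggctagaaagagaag
Csf2ra (chr19:61228369-61228668, minus strand): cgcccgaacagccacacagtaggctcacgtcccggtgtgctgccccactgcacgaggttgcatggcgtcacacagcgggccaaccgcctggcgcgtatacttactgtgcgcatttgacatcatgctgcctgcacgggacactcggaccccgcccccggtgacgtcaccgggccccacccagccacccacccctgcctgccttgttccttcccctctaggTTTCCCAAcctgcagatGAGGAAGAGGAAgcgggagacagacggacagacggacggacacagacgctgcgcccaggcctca
The Csf3r window held 1 PU.1 match, at bases -86 to -81 from the start. That of Csf2ra held 2, in direct succession between bases -14 and -3, and 1 C/EBP match at bases -31 to -24. Neither window held the RUNX letters. Of the other windows, that of Csf2rb2, which was not called in S226A liver, held 2 PU.1 and 2 C/EBP matches. That of Csf2 held 1 C/EBP match, and that of Csf1 held no match. The matches are letters only, and binding was not measured.

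Genes of the proteins that carry the signal of these receptors inside the cell were counted as a list of 32. In S226A liver 9 of them rose and 1 fell, where 6.14% and 5.54% of all genes did so, with a median log2 fold change of 0.10. The largest rises were in Fgr, a Src family kinase of myeloid cells (1.30, SE 0.20), and Ptpn6, the phosphatase SHP-1 (0.77, SE 0.11). The gene that fell was Socs2, an inhibitor of cytokine signalling (-0.49, SE 0.15). In S226A lung 3 fell and 0 rose, where 1.02% of all genes fell, led by Pik3ap1, an adaptor for phosphoinositide 3-kinase (-1.45, SE 0.13), and Plcg2, a phospholipase (-0.67, SE 0.13). In S226A brain 2 fell and 0 rose, where 0.184% of all genes fell, Vav1 (-1.06, SE 0.20), a guanine nucleotide exchange factor of blood cells, and Tyrobp, an adaptor of myeloid receptors (-1.01, SE 0.20). The part of cell numbers in the levels of these genes was not tested.

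Of the list of myeloid transcription factors, 3 of 13 rose and 3 fell in S226A liver, beside 6.14% and 5.54% of all genes. Cebpe and Gfi1, which act in the making of granulocytes, rose by 1.62 (SE 0.29) and 1.28 (SE 0.33) on the log2 scale. Among those that fell was Bach2, by 0.78 (SE 0.17). In S226A lung Cebpe rose by 3.44 (SE 0.70) on at most 14 reads in a library, and in S226A brain none of the 13 passed. Of 20 measured genes of other blood cell cytokines and their receptors, 1 rose and 1 fell in S226A liver, a share near the 6.14% and 5.54% of all genes. These were Il3ra, the specific chain of the interleukin 3 receptor that signals with the beta chains (0.79, SE 0.25, adjusted p = 0.0321), and Il7r (-1.35, SE 0.32, adjusted p = 0.00291). None of the 20 passed in S226A lung or brain.

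The genes whose levels followed the receptors most closely were sought over all 47 libraries, by Pearson's r of log2(CPM + 1). As the libraries share 3 tissues and the mutant groups, these values describe the pattern over tissues and genotypes and are no test. Csf1r was most like Adgre1, the macrophage marker F4/80 (r = 0.973), Cd86 (0.969) and P2ry13 (0.961). Among the genes most like Csf3r were Adpgk (0.987) and Mmp8, a collagenase of neutrophil granules (0.986). Csf2rb was most like Dock8 (0.995), Syk (0.993) and Itgb2 (0.993). For Csf2ra the closest gene, Coro1a, reached only 0.870. Csf1, a ligand, was most like Pik3r5 (0.954) and Psd4 (0.954).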

How the data were processed

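RNA-seq of 47 libraries was analysed from the deposited counts, which the authors made by aligning trimmed reads to GRCm38.p6 with STAR 2.6.0b and summarizing them per gene of GENCODE M19 (Ensembl 94), per the study's methods and the submitters' processing notes. The deposited counts are whole reads per gene, without normalization. Groups were taken from the labels. Gene positions, exon blocks and lengths came from GENCODE M21, in which 20424 of 20456 genes had a match.

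Counts were fitted with edgeR 4.0.16 (R 4.3.3) by glmQLFit and glmQLFTest, with TMM, 1 coefficient per group and all 47 libraries, after filterByExpr (minimum count 10, minimum total 15), which left 16892 genes. P-values were adjusted by Benjamini-Hochberg over these genes, and a gene was called at an adjusted p below 0.05. Under the stringent criteria an adjusted p below 0.01, a log2 fold change beyond 1 and an SE below 1 were required, where F is the squared ratio of the log2 fold change to the SE. Normalized counts are TMM-scaled CPM times the geometric mean library size of 29553745 reads. RPKM divide by the length of the joined exons. The fit was tested on simulated data.

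Litter numbers in the sample titles mark shared litters, and 18 of 23 littermate pairs of libraries had residuals correlated above 0.1 (median 0.21), against 5 of 69 pairs of other embryos (median -0.06). The libraries of 1 group come from separate embryos, and none was a copy of another (chi-square per degree of freedom at least 4.09 in 69 replicate pairs). Alternatives were DESeq2 1.42.0, RLE size factors, no filter, a fit of the compared libraries alone, litter as replicate block (embryo between tissues), the stringent criteria, and leaving out each library in turn. A fit without 2 liver libraries with keratinocyte transcripts was chosen after seeing the data.

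The rule for named genes took all 9 members, along with, per list, at most 2 called genes in each direction with the largest log2 fold changes. The genes most like a member were the highest by Pearson's r among genes that passed the filter. A few genes that these rules named are not reported here. The members and the 22 lists of listed genes were chosen with earlier results of these data known. Of the listed genes, Il3 and Trac are not in the count table. Figures were drawn with matplotlib 3.10.9.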

Additional observations from a re-analysis of the deposited data

Results flagged for a closer look

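In 6 of 82 groups of 4 libraries, 1 library lay far from the other members of its group, where chance alone would give about 1 in 20. Csf1r measured 7139 in WT liver replicate 4 of the S226A litters, against 6295 to 6373 in the other WT livers of that group, and 317 in S226A brain replicate 1, against 239 to 253. Csf1 measured 665 in S226A lung replicate 3, against 443 to 477. Il34 measured 189 in WT lung replicate 2 of the S226A litters, against 327 to 334, and 14.1 in WT liver replicate 1 of the Y130A litters, against 0 to 1.03. Csf3 measured 2.71 in Y130A lung replicate 2, on 4 reads, against 0 in the others. All are normalized counts.

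The effect of S226A differed from that of Y130A, by the test of the difference itself, in Csf1r in liver (-1.50), lung (-1.14) and brain (-1.43), in Csf2ra in liver (0.89), in Csf3r in liver (1.32) and in Csf2rb in lung (-1.02), on the log2 scale, the last of which lost its call with litter as a block (adjusted p = 0.0976, edgeR). The effect of S226A differed between liver and lung in Csf1r (-0.48, with an adjusted p of 0.0621 by edgeR with litter as a block), Csf2ra (1.64), Csf2rb (1.55) and Csf2rb2 (1.76), and between liver and brain in Csf2ra (1.30) and Csf3r (1.65). Of all genes tested, 5.9%, 0.308% and 0.0829% differed between S226A and Y130A in liver, lung and brain, and the S226A effect differed in 6.9% between liver and lung and in 3.71% between liver and brain. The cause of these differences was not tested.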

How the results depend on the processing

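Over 51 gene results and their alternatives, 950 values kept direction and side of the threshold, 29 lost the call, 24 gained it and 0 turned direction. The number of members called in S226A lung, 4, became 1 under the stringent criteria, 2 with litter as replicate block and 2 in a fit of the compared libraries alone, and ranged from 2 to 5 on leaving out 1 library, with 2 without WT replicate 4. The difference of S226A and Y130A in lung, 2 members, became 1 under the stringent criteria and 1 with the block, and ranged from 1 to 2 on leaving out a library. The difference of the S226A effects between liver and lung, 4, became 2 under the stringent criteria. That between liver and brain, 2, ranged from 1 to 3, with 1 without WT brain replicate 3. That between lung and brain, 0, became 1 with DESeq2 and ranged from 0 to 1. The 8 members that differed between WT lung and WT brain became 5 under the stringent criteria. The block left the calls in S226A liver and brain and in all Y130A tissues as they were. The cause of these changes was not tested. Il34 in liver, Csf2rb, Csf2rb2 and Csf3r in brain and Csf3 everywhere rest on few reads.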

Other observations

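Among the other lists, genes of the dendritic cell list stood lower in S226A liver. Of the 5 measured, 4 fell and 0 rose, beside 5.54% and 6.14% of all genes tested. H2-Aa and H2-Ab1, which encode chains of the class II antigen-presenting molecule, had log2 fold changes of -4.32 (SE 0.54) and -2.28 (SE 0.42). None of the 5 passed in S226A lung or brain. Of the Kupffer cell markers, 2 rose in S226A lung, Cd5l (1.96, SE 0.53) and the scavenger receptor gene Marco (1.01, SE 0.24). Marco rose in S226A brain as well, with up to 38 reads per library and 0 in every WT littermate.

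Lists of other cells that these tissues could hold were counted as well. In S226A liver, 0 of 9 stromal and stellate cell markers, 0 of 7 markers of eosinophils, basophils and mast cells, 0 of 7 of T cells and NK cells (22.2 to 23.5 CPM in sum, beside 26.3 to 54.6 CPM in WT) and 0 of 7 erythroid markers passed the test, while 2 of 7 endothelial markers, Cdh5 (-0.46, SE 0.12) and Pecam1 (-0.34, SE 0.11), and 1 of 8 neuron markers, Map2 (-0.49, SE 0.16), fell. Of all genes tested, 5.54% were called lower in S226A liver. In S226A lung, where 0.852% of all genes were called higher, 1 endothelial marker rose, Stab2 (0.90, SE 0.22), and 0 of 7 alveolar epithelium markers passed. Of the 11 keratinocyte markers 9 were called lower in S226A liver, where their reads stood in WT replicate 2.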
